A study of Mus musculus with 18 samples.

Results

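The comparison described here is entinostat against its solvent DMSO after knockdown of Spi1, in mouse TgSpi1 erythroleukemic cells of line #763. It takes 6 of the 18 libraries of the study, 3 with entinostat and 3 with DMSO, chosen by their labelled treatment, and all genes were examined. All 6 cultures carried the doxycycline-inducible short hairpin RNA against Spi1, were grown with EPO and received doxycycline for 48 h. One group was exposed to 3 µM entinostat for 6 h and the other to DMSO, and the libraries are labelled as biological replicates of poly(A) RNA. The same experiment held 6 libraries without doxycycline, 3 with each of the same treatments, and a separate first experiment held 6 libraries with or without doxycycline and no solvent or inhibitor. All libraries came from 1 line, and without a group carrying another hairpin, what doxycycline or off-target silencing did to these cells cannot be told apart from loss of Spi1.

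Spi1 encodes PU.1, an ETS-family transcription factor that drives macrophage, neutrophil and B cell genes and blocks red cell maturation when it is overproduced in erythroblasts. Entinostat is a benzamide inhibitor of class I histone deacetylases, the enzymes that remove acetyl groups from histone tails within corepressor complexes. Blocking them raises histone acetylation within hours, and it also disturbs transcription of genes that are already highly active.

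The 6 libraries held 43116322 to 48855905 counts, and 15051 of the 26903 listed genes passed the filter on low counts. A gene was called when its adjusted p, from edgeR's quasi-likelihood test with Benjamini-Hochberg adjustment over all 15051 genes, was below 0.05. Levels are CPM, which are counts scaled to library size, and are given in the order of the replicate numbers. The first DMSO library stood apart from the other two: its Pearson correlation with them over log2 CPM was 0.98 and 0.979, while the other two correlated at 0.995. Counts that differ against the first DMSO library alone are therefore mostly given in both ways, and the main counts also after removal of the trend with transcript length and GC content that is described below. The fit with 1 control library called fewer of all genes, so a lower count there does not by itself mean a smaller change.

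Of the erythroid markers, 9 of 9 were listed, and their summed level was 4580 to 5600 CPM in DMSO and 2770 to 4610 CPM in entinostat. Markers of macrophages and neutrophils summed to at most 0.466 CPM in DMSO and 1.71 CPM in entinostat, with Itgam at 0 in all 6 libraries. The 4 mast cell markers summed to 7.68, 0.972 and 0.883 CPM in DMSO and 76.0, 43.2 and 33.8 CPM in entinostat, nearly all of it Fcer1a, while Mcpt8 was at 0 throughout. Megakaryocyte markers summed to 29.9 to 44.7 CPM in DMSO and 65.3 to 126 CPM in entinostat. Summed B cell markers reached at most 0.296 CPM, and those of T and NK cells, mostly Lck, summed to at most 3.85 CPM in DMSO and at least 9.65 CPM in entinostat.

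Spi1, the target of the hairpin, was measured at 59.5, 126 and 105 CPM in DMSO and 98.5, 162 and 132 CPM in entinostat after doxycycline, and at 199.6, 259 and 252 CPM in DMSO and 221, 480.3 and 482 CPM in entinostat without doxycycline. Every doxycycline library of a treatment lay below every library of that treatment without doxycycline. The fitted change with doxycycline was -1.29 on the log2 scale in DMSO (adjusted p = 0.0264) and -1.59 in entinostat (adjusted p = 0.00722), so Spi1 mRNA was lowered and not removed; doxycycline changed 9.31% of genes in DMSO and 24.0% in entinostat. Entinostat itself did not pass the test for Spi1 after knockdown (log2 fold change 0.43 ± 0.33 SE, adjusted p = 0.26), and the 2 groups overlapped. It did pass in a fit with the replicate number as a block (log2 fold change 0.47, adjusted p = 0.0337). Taken against the first DMSO library alone, which had the lowest Spi1 of the 6, the same fold change was 1.20, adjusted p = 0.0387.

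Entinostat after knockdown changed most of the measured transcriptome. Called genes made up 63.7% of those tested: 5097 genes rose (33.9%) and 4498 fell (29.9%). Rises were larger than falls. The median log2 fold change was 2.16 among genes that rose and -1.01 among genes that fell, and 4321 rises (28.7%) but 2290 falls (15.2%) were at least 2-fold. Against the first DMSO library alone 3308 genes rose and 1848 fell, together 34.3% of genes, and with the length and GC trend removed 4751 rose and 5419 fell, together 67.6%. The 3 libraries of one group lay entirely above or below those of the other for 66.0% of genes. A further fit left out the first DMSO library and the first entinostat library without doxycycline, and it called 78.5% of genes. In that fit and both of the others, 2983 rises (58.5%) kept their call and direction, as did 1752 falls (39.0%).

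The direction of change followed how strongly a gene was expressed. Genes were classed by their mean in the DMSO libraries without doxycycline, which are not part of the comparison. Among 2548 genes over 100 CPM, 60.2% fell and 5.38% rose, and among 4385 genes at 20 to 100 CPM, 50.9% fell and 10.6% rose. Among 1659 genes at 1 to 5 CPM, 52.1% rose and 8.50% fell. In the lowest class, under 0.5 CPM, 69.6% of 3692 genes rose, but many genes this low passed the filter only through a group in which they were higher. The median log2 fold change went from 0.81 at 1 to 5 CPM to -0.72 over 100 CPM, and from 0.75 to -0.46 against the first DMSO library alone.

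**Figure D1:**
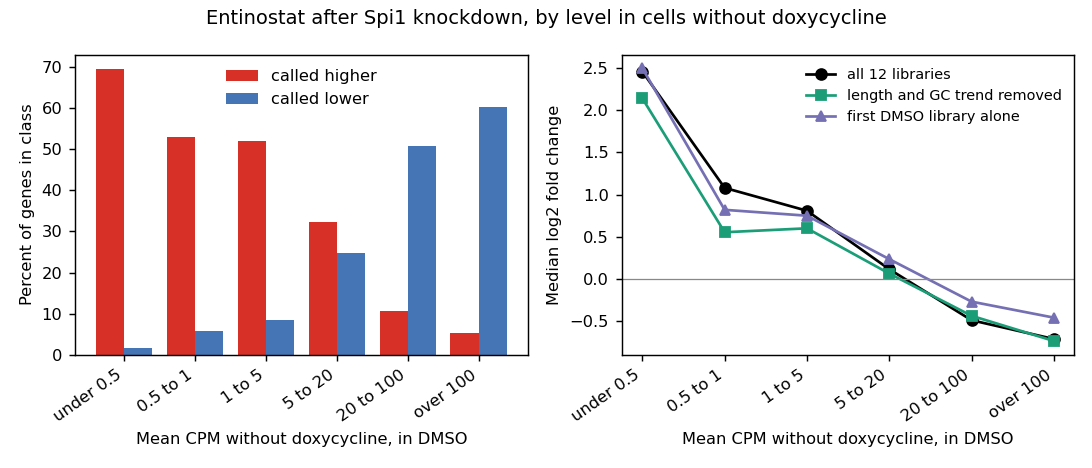
Genes tested, classed by mean CPM in the 3 DMSO libraries without doxycycline. Left, percent of each class called higher or lower with entinostat after knockdown; right, median log2 fold change of the class in 3 fits. The share called higher goes from 69.6% in the lowest class to 5.38% in the highest, while the share called lower goes from 1.65% to 60.2%.

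Transcripts that were nearly absent appeared, and the reverse was rare. A mean under 0.5 CPM in DMSO with a mean of at least 5 CPM in entinostat was found for 112 genes, 91 of them protein-coding. No gene went the other way between those levels, and 1 gene did when the lower limit was 1 CPM. By transcript class, 77.5% of 579 lincRNA genes and 66.2% of 526 antisense genes rose, and 29.0% of 11757 protein-coding genes did. These classes were not matched for level, and noncoding genes that are low in DMSO could pass the filter only through a group in which they were higher, so the shares are given as a description. The library kit does not mark strand, so reads of an antisense gene and of its overlapping partner cannot be told apart.

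The size of the change also depended on transcript length. Genes were put into 5 equal classes of transcript length. Within each library, the median deviation of the longest class from the mean of all libraries, minus that of the shortest class, was -0.863, -0.873 and -0.897 on the log2 scale in the 3 entinostat libraries. It was 0.813 and 0.825 in the other DMSO libraries but -0.473 in the first, which sat on the side of the entinostat libraries. Without doxycycline it was 0.0934 to 0.475 in DMSO, and in entinostat it was -0.748 in the first library but 0.525 and 0.489 in the others. Those 2 entinostat libraries thus lay on the side of the DMSO libraries.

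In the comparison after knockdown, the median log2 fold change was 0.89 in the shortest class of transcripts and -0.39 in the longest. Called rises made up 46.2% of the shortest class and 22.6% of the longest, and called falls 6.98% and 43.1%. The medians against the first DMSO library alone were 0.45 and -0.0088. Whether the trend came from the cells or from RNA handling or library preparation was not tested.

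**Figure D2:**
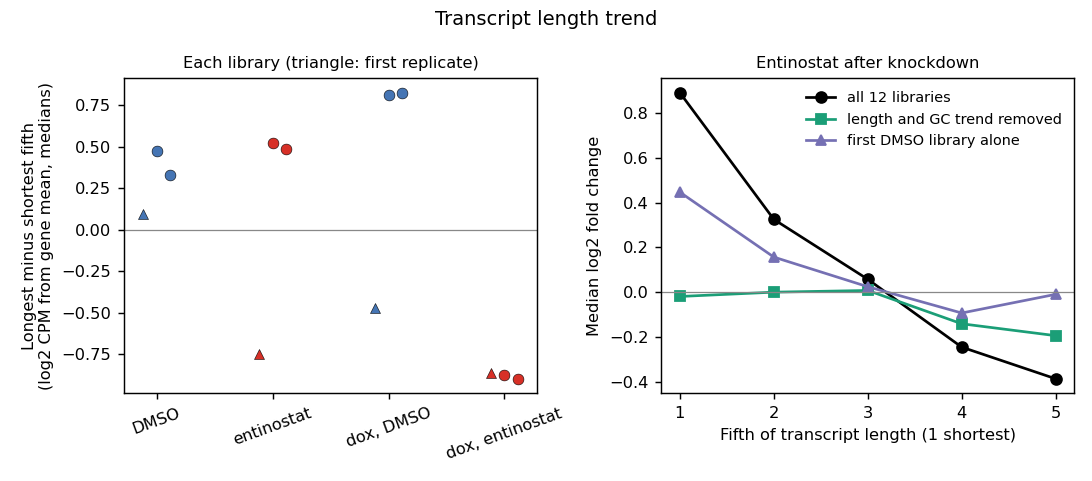
Left, for each of the 12 libraries, the median log2 deviation of the longest class of transcripts minus that of the shortest; triangles mark the first replicate of each group. Right, median log2 fold change of entinostat after knockdown by class of transcript length (5 equal classes) in 3 fits. The 3 entinostat libraries after doxycycline lie between -0.897 and -0.863, and the first DMSO library lies at -0.473, apart from the other two near 0.8.

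The largest rises were of genes with almost no reads in DMSO. Mgarp, a mitochondrial protein gene, was measured at 0.442, 0.302 and 0.302 CPM in DMSO and 50.9, 93.3 and 68.2 CPM in entinostat (log2 fold change 7.67 ± 0.32 SE, adjusted p = 3.88e-08). Eno2, the neuronal enolase, had 0.0491, 0.0648 and 0 CPM in DMSO and 5.77, 15.03 and 10.5 CPM in entinostat (log2 fold change 8.02 ± 0.58 SE, adjusted p = 6.66e-07). Gli1, a transcription factor of the Hedgehog pathway, had 0.123, 0.0432 and 0 CPM in DMSO and 5.33, 12.3 and 10.7 CPM in entinostat (log2 fold change 7.41 ± 0.56 SE, adjusted p = 9.1e-07). In all 3 genes the lowest entinostat library was far above the highest DMSO library.

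The largest rises included receptors. S1pr1, the receptor for sphingosine 1-phosphate that guides lymphocyte exit, went from at most 0.129 CPM to at least 10.6 CPM. Clec4e, an innate lectin receptor also known as Mincle, had 0.246, 0.0864 and 0.0862 CPM in DMSO and 14.8, 16.0 and 17.9 CPM in entinostat (log2 fold change 6.87 ± 0.44 SE, adjusted p = 3.01e-07). Erbb3, a receptor of the EGF receptor family, Cd200r3, of mast cells and basophils, Cmah, which makes the sialic acid Neu5Gc, Prss16, a thymic serine protease, and Btg4, known from oocytes, rose by 8.16, 6.79, 7.01, 7.15 and 6.95 on the log2 scale.

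Rnase4, a secreted ribonuclease, had 0, 0 and 0 CPM in DMSO and 3.603, 7.53 and 7.75 CPM in entinostat, with no read in any DMSO library. Against a floor of 3 counts per library this was at least 93.0-fold higher. Rnase4 shares its locus and strand with Ang, so the counts of the 2 genes are uncertain. Albfm1 had 1 read in all DMSO libraries together and 827 in entinostat, a ratio of 824 with an exact 95% counting interval of 147 to 32600.

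The 12 largest falls by fold, among genes of at least 5 CPM, were smaller than the largest rises. C2cd4a was measured at 12.3, 27.2 and 22.7 CPM in DMSO and 0.828, 0.887 and 1.01 CPM in entinostat (log2 fold change -4.51 ± 0.30 SE, adjusted p = 3.8e-07). Bend3, a BEN-domain repressor found at heterochromatin, had 19.6, 41.1 and 41.7 CPM in DMSO and 2.91, 2.59 and 2.31 CPM in entinostat (log2 fold change -3.71 ± 0.34 SE, adjusted p = 3.72e-06). The kidney progenitor homeobox gene Six2 had 40.7, 62.1 and 71.9 CPM in DMSO and 7.54, 5.80 and 6.63 CPM in entinostat (log2 fold change -3.13 ± 0.28 SE, adjusted p = 3.46e-06). In each the highest entinostat library was below the lowest DMSO library.

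Slc19a1, the reduced folate carrier, had 76.7, 103 and 98.6 CPM in DMSO and 16.1, 11.8 and 11.9 CPM in entinostat (log2 fold change -2.81 ± 0.19 SE, adjusted p = 4.52e-07). Fasn, the fatty acid synthase, had 181, 544 and 622 CPM in DMSO and 50.04, 71.0 and 65.5 CPM in entinostat (log2 fold change -2.85 ± 0.50 SE, adjusted p = 0.000381), and its first DMSO library was well below the other two. Podxl, a surface sialomucin, Txnrd3, a thioredoxin reductase, Nagpa, of lysosomal enzyme sorting, Lgals3bp, a secreted glycoprotein, and Tmem238 changed by -2.95 ± 0.39, -3.34 ± 0.31, -2.89 ± 0.28, -2.96 ± 0.32 and -2.90 ± 0.25 (SE). Pwp2 and Ccdc86, both nucleolar, changed by -3.07 ± 0.28 and -2.95 ± 0.23.

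**Figure D3:**
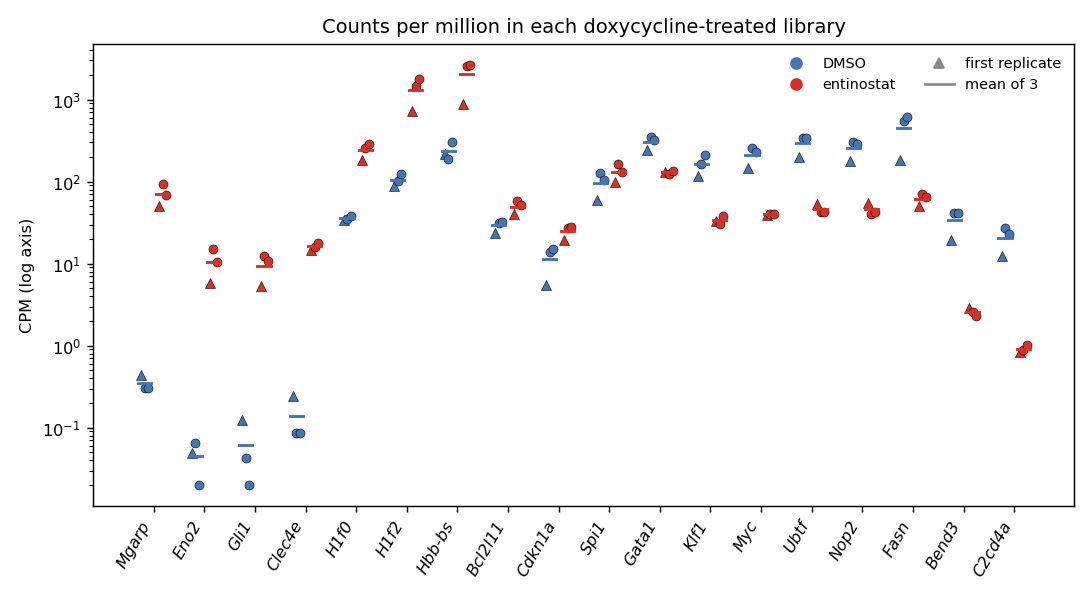
CPM on a log axis for 18 named genes in the 3 DMSO (blue) and 3 entinostat (red) libraries after doxycycline; triangles mark the first replicate, bars the mean of 3, and libraries at 0 are drawn at 0.02 CPM. Mgarp lies under 0.5 CPM in DMSO and over 50 CPM in entinostat, Bend3 and C2cd4a fall more than 6-fold between the nearest libraries, and the 2 groups of Spi1 overlap.

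Promoter windows are shown for the 2 largest fitted rises and the 2 largest falls, to set their CpG content side by side. Each window runs from 250 bases before to 50 bases after the start of the gene, is taken from RefSeq on GRCm38.p6 and is written 5′ to 3′ on the gene's strand, with CpG dinucleotides in capitals. Rnase4 lies at chr14:51090827-51091126, plus strand and Albfm1 at chr5:90560959-90561258, plus strand. C2cd4a lies at chr9:67832281-67832580, minus strand and Bend3 at chr10:43478890-43479189, plus strand.
Rnase4: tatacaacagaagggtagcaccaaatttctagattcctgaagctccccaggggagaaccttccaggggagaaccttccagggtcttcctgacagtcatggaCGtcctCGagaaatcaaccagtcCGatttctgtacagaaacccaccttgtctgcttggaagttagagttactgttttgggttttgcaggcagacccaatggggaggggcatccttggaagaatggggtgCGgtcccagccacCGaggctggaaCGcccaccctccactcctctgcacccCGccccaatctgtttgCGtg
Albfm1: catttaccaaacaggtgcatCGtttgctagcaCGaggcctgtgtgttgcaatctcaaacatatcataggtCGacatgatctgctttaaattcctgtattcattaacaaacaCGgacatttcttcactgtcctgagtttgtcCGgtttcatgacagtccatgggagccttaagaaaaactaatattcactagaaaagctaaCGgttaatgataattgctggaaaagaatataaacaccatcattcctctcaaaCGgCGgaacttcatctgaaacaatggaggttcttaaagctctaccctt
C2cd4a: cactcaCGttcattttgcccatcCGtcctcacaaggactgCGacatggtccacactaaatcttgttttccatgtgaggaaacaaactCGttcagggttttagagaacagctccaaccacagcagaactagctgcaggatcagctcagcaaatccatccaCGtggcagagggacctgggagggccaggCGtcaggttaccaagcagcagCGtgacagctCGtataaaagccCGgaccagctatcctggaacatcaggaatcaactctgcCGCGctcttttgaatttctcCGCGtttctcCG
Bend3: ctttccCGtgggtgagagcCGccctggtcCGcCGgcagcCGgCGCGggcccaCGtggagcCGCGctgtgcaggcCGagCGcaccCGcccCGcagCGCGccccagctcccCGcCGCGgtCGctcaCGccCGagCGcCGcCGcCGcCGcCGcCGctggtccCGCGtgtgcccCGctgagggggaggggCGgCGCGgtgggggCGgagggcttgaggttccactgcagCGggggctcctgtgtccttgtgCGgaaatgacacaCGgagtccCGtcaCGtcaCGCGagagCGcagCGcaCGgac

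The 2 windows of rising genes hold 8 CpG each, that of C2cd4a 14 and that of Bend3 46. The ratio of observed to expected CpG, which allows for base composition, was 0.358 for Rnase4, 0.686 for Albfm1, 0.692 for C2cd4a and 1.02 for Bend3, so it did not separate Albfm1 from C2cd4a. The median over 9432 tested protein-coding genes with a window was 21. A ratio of observed to expected CpG of at least 0.6 was found in 85.5% of 1740 genes that fell at least 2-fold, against 72.7% of all tested genes with a window and 74.8% of those not called. These sets were not matched for expression level, and falls were most frequent among highly expressed genes. The same share is void for genes that rose at least 2-fold, since only 76.8% of them had a window.

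Transcripts of ribosome assembly fell in nearly all tested cases. At 20 to 100 CPM 50.9% of all genes fell and over 100 CPM 60.2%, with median log2 fold changes of -0.50 and -0.72. Of 47 tested ribosome biogenesis genes 43 fell (91.5%) and 0 rose, with a median of -1.87, beside 0.14 over all genes tested. Taken against the first DMSO library alone, 41 fell, and with the length and GC trend removed 43 fell. Ubtf, the transcription factor of RNA polymerase I, had 200.4, 338 and 343 CPM in DMSO and 53.4, 42.0 and 42.5 CPM in entinostat (log2 fold change -2.68 ± 0.26 SE, adjusted p = 5.07e-06). Polr1b, the second largest subunit of that polymerase, had 86.2, 126 and 126 CPM in DMSO and 22.8, 18.7 and 19.9 CPM in entinostat (log2 fold change -2.46 ± 0.20 SE, adjusted p = 1.57e-06). The lowest DMSO library was at least 3 times the highest entinostat library in both.

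Other members fell to a similar degree. Nop2, an rRNA methyltransferase, had 179, 305 and 285 CPM in DMSO and 55.2, 40.3 and 42.4 CPM in entinostat (log2 fold change -2.48 ± 0.26 SE, adjusted p = 1.05e-05). Nolc1, a nucleolar chaperone, and the assembly factors Tsr1, Rrp12, Rrs1 and Grwd1 changed by -2.50 ± 0.36, -2.54 ± 0.28, -2.44 ± 0.35, -2.62 ± 0.25 and -2.72 ± 0.23 (SE). Myc, a transcription factor that drives ribosome production, had 146, 260.1 and 229.5 CPM in DMSO and 39.5, 40.5 and 40.3 CPM in entinostat (log2 fold change -2.40 ± 0.27 SE, adjusted p = 1.45e-05). Its 3 entinostat libraries lay within 1 CPM of each other. Its partner Max changed by -1.45 ± 0.18 (SE). Among 12 tested genes of the MYC network 7 fell and 3 rose (58.3% and 25.0%). Of all genes 50.9% fell at 20 to 100 CPM and 60.2% over 100 CPM, so the share of falls was near that of genes at such levels. The median log2 fold change of this list was -0.63, but only -0.25 against the first DMSO library alone.

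Genes of cytosolic ribosomal proteins gave no stable answer. Of 76 tested, 19 rose and 1 fell in the reported fit, 16 rose and 15 fell with the trend removed, and 0 were called against the first DMSO library alone. Their transcripts are short, with a median length of 1100 bases, and many have near-identical processed copies. Of the 11 tested mitochondrially encoded genes 0 were called in the reported fit and 10 fell with the trend removed.

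Histone genes rose. Among 38 tested replication-dependent histone genes, whose mRNAs normally lack a poly(A) tail, 34 rose and 0 fell, with a median log2 fold change of 2.46. Of the 14 that averaged at least 0.5 CPM in DMSO without doxycycline, 14 rose, against 22.3% of the 11360 tested genes at that level. With the trend removed 26 of 38 rose and 1 fell, and against the first DMSO library alone 22 rose and 0 fell. H1f2, a linker histone, had 87.2, 101 and 124 CPM in DMSO and 728, 1459 and 1793 CPM in entinostat (log2 fold change 3.67 ± 0.32 SE, adjusted p = 2.72e-06). H2bc4, an H2B gene, had 40.6, 22.7 and 31.7 CPM in DMSO and 206, 392 and 499.5 CPM in entinostat (log2 fold change 3.53 ± 0.38 SE, adjusted p = 1.23e-05). No library of one group reached the other in either gene. H1f0, the linker histone of resting cells, is made from polyadenylated mRNA and had 34.3, 34.8 and 38.4 CPM in DMSO and 186, 258 and 291 CPM in entinostat (log2 fold change 2.77 ± 0.19 SE, adjusted p = 4.52e-07). Histone genes are near-identical in sequence, so the split of reads between single members is uncertain.

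Erythroid transcription factors fell. Of 21 tested, 18 fell (85.7%), beside 50.9% of all genes at 20 to 100 CPM and 60.2% over 100 CPM. In this list 1 rose, the median log2 fold change was -1.24, and with the trend removed 17 fell. With only the first DMSO library as control, 11 fell and 3 rose. Klf1, the activator of adult globin genes, had 116, 163 and 209.5 CPM in DMSO and 33.3, 30.6 and 38.3 CPM in entinostat (log2 fold change -2.26 ± 0.24 SE, adjusted p = 9.23e-06). Gata1, the central erythroid GATA factor, had 243, 354 and 321 CPM in DMSO and 131, 123 and 135 CPM in entinostat (log2 fold change -1.24 ± 0.18 SE, adjusted p = 0.000118). The groups were separate in both genes, and the first DMSO library was the lowest of the 3. In bulk RNA, fewer cells of a type and less RNA per cell cannot be told apart.

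Tal1, Lmo2, Bcl11a and Myb, which work with or upstream of these factors, changed by -1.66 ± 0.17, -1.49 ± 0.16, -2.29 ± 0.24 and -1.72 ± 0.20 (SE). Gata2, of early progenitors and mast cells, changed by -1.63 ± 0.24. Of 12 tested stem and progenitor regulators 5 rose and 4 fell. Ikzf2, the Helios factor, had 2.09, 1.77 and 2.33 CPM in DMSO and 31.9, 37.8 and 28.4 CPM in entinostat (log2 fold change 3.98 ± 0.22 SE, adjusted p = 1.01e-07).

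The products of erythroid maturation did not move as a group. The adult beta globin genes rose: Hbb-bs had 215, 187 and 304 CPM in DMSO and 881, 2557 and 2642 CPM in entinostat (log2 fold change 3.11 ± 0.44 SE, adjusted p = 8.13e-05), and Hbb-bt had 214, 172 and 242 CPM in DMSO and 875, 2310.0 and 2023 CPM in entinostat (log2 fold change 3.05 ± 0.37 SE, adjusted p = 2.86e-05). These 2 genes are near-identical, so their reads may be shared. Cd59a, which protects cells from complement, had 0.516, 0.799 and 1.01 CPM in DMSO and 24.9, 48.8 and 50.3 CPM in entinostat (log2 fold change 5.72 ± 0.37 SE, adjusted p = 3.15e-07). Every entinostat library was above every DMSO library in all 3 genes.

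Cpox, which makes a porphyrin in heme synthesis, went the other way, with 1008, 1583 and 1601 CPM in DMSO and 462, 296 and 386 CPM in entinostat (log2 fold change -1.87 ± 0.24 SE, adjusted p = 4.57e-05). Among 18 tested globin and heme genes 5 rose and 6 fell, or 6 and 2 against the first DMSO library alone, and among 31 red cell membrane genes 6 rose and 15 fell, with Ermap at -1.92 ± 0.22 and Tspan33 at -1.62 ± 0.19 (SE). The membrane genes, taken against the first DMSO library alone, split into 8 that rose and 4 that fell. Of 18 iron genes 11 fell and 1 rose, and 6 fell against the first DMSO library alone. They included Slc11a2, the DMT1 iron transporter, at -1.64 ± 0.15 and Steap3, an endosomal ferrireductase, at -2.53 ± 0.35. Falls in the reported fit made up 48.4% of the membrane list and 61.1% of the iron list. These shares were near the 50.9% of all genes at 20 to 100 CPM and the 60.2% over 100 CPM that fell. Epor, the EPO receptor, had 143, 162 and 161 CPM in DMSO and 39.5, 40.6 and 43.3 CPM in entinostat (log2 fold change -1.92 ± 0.13 SE, adjusted p = 5.55e-07), and no library of one group came near the other.

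In the S phase list 31 of 48 fell and 3 rose, and in the list of G2 and mitosis 23 of 44 fell and 0 rose, or 64.6% and 52.3% falls. Of all genes at 20 to 100 CPM 50.9% fell, and 60.2% over 100 CPM, so the shares of both lists were near those of genes at such levels. These counts were 13 and 4 falls, with 1 and 2 rises, against the first DMSO library alone. Ccne1, the cyclin of S phase entry, had 154, 164 and 166 CPM in DMSO and 59.4, 51.5 and 57.6 CPM in entinostat (log2 fold change -1.52 ± 0.13 SE, adjusted p = 2.47e-06). Cdt1, which licenses replication origins, had 81.3, 112 and 123 CPM in DMSO and 36.1, 23.9 and 32.5 CPM in entinostat (log2 fold change -1.78 ± 0.21 SE, adjusted p = 2.21e-05). Cdc20, which activates the anaphase-promoting complex, had 235, 318 and 344 CPM in DMSO and 107, 104 and 126 CPM in entinostat (log2 fold change -1.42 ± 0.19 SE, adjusted p = 4.86e-05). Plk1, the mitotic kinase, changed by -1.82 ± 0.32 (SE). The groups did not overlap in any of these genes.

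Of 17 cell cycle inhibitors 9 rose and 3 fell, and 6 rose and 1 fell against the first DMSO library alone. Among the 16 with at least 0.5 CPM in DMSO without doxycycline, 8 rose and 3 fell. Of all tested genes at that level 22.3% rose and 39.1% fell. Cdkn1a, which encodes p21, had 5.55, 13.8 and 15.2 CPM in DMSO and 19.2, 27.0 and 28.0 CPM in entinostat (log2 fold change 1.10 ± 0.36 SE, adjusted p = 0.0163). Ccng2, a cyclin of growth arrest, had 7.22, 5.83 and 6.48 CPM in DMSO and 58.2, 58.7 and 69.9 CPM in entinostat (log2 fold change 3.26 ± 0.20 SE, adjusted p = 2.6e-07). Cdkn2b, which encodes p15, rose by 1.21 ± 0.19 (SE). Rbl2, of the retinoblastoma family, changed by -0.85 ± 0.18, and that call was lost against the first DMSO library alone (-0.53, adjusted p = 0.0752).

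In cholesterol synthesis and uptake 20 of 26 tested genes fell and 0 rose, and 10 fell against the first DMSO library alone. Sqle, the squalene epoxidase, had 153, 267 and 286 CPM in DMSO and 47.2, 37.1 and 51.2 CPM in entinostat (log2 fold change -2.38 ± 0.26 SE, adjusted p = 1.21e-05), and its groups were separate. In folate and purine synthesis 17 of 24 fell and 2 rose, and 12 fell with that library as control, with Fpgs, which traps folates in the cell, at -2.11 ± 0.20 and Gmps, the GMP synthetase, at -1.74 ± 0.25 (SE). Among 28 genes of the ATF4 and stress response 21 fell and 1 rose, and 8 fell with that control, with the amino acid transporter Slc7a5 at -2.28 ± 0.35. Atf3, a stress-induced factor, was the member that rose, with 4.79, 4.32 and 5.04 CPM in DMSO and 9.87, 12.1 and 12.3 CPM in entinostat (log2 fold change 1.27 ± 0.19 SE, adjusted p = 0.0001). Falls made up 76.9% of the cholesterol list, 70.8% of folate and purine synthesis and 75.0% of the ATF4 list. Of all genes 50.9% fell at 20 to 100 CPM and 60.2% over 100 CPM, and glycolysis, at 57.1%, was near these shares. In this order, with glycolysis last, the median log2 fold changes were -0.99, -1.15, -1.06 and -0.95. Against the first DMSO library alone they were -0.62, -0.81, -0.83 and -0.36. In glycolysis 12 of 21 fell and 3 rose, with the lactate exporter Slc16a3 at -2.36 ± 0.23, but 4 fell and 6 rose against the first DMSO library alone.

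Splicing factors of the SR and hnRNP families fell in 20 of 32 cases (62.5%) and rose in 0, near the 60.2% of all genes over 100 CPM that fell. Srsf2, an SR protein, had 426, 500.4 and 555 CPM in DMSO and 192, 172 and 218 CPM in entinostat (log2 fold change -1.35 ± 0.17 SE, adjusted p = 3.96e-05). Hnrnpa0 changed by -2.16 ± 0.34 (SE). With the trend removed 26 of the 32 fell, and against the first DMSO library alone 10 did.

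In the list of HDAC and corepressor subunits 24 of 36 fell (66.7%) and 3 rose, and 9 fell and 4 rose against the first DMSO library alone. Of all genes 50.9% fell at 20 to 100 CPM and 60.2% over 100 CPM. Hdac1 had 327, 294 and 278 CPM in DMSO and 367, 304 and 344 CPM in entinostat and did not pass the test (log2 fold change 0.18 ± 0.16 SE, adjusted p = 0.337). Hdac3 had 108, 107 and 102 CPM in DMSO and 127, 120.0 and 126 CPM in entinostat and did not pass either (log2 fold change 0.23 ± 0.13 SE, adjusted p = 0.126), although its groups were separate and it was called with the trend removed (0.29, adjusted p = 0.0232). Hdac2 had 112, 132 and 135 CPM in DMSO and 74.3, 72.0 and 83.6 CPM in entinostat (log2 fold change -0.72 ± 0.17 SE, adjusted p = 0.00225), a call that was lost against the first DMSO library alone (-0.48, adjusted p = 0.106). Mta2, Mta1 and Mbd3, subunits of the NuRD complex, changed by -1.53 ± 0.24, -1.46 ± 0.23 and -1.74 ± 0.20 (SE), while Rcor2, a partner of the demethylase LSD1, rose by 2.39 ± 0.32.

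Among acetyltransferases and acetyl-lysine readers 14 of 21 fell (66.7%, to be read beside the same shares) and 0 rose, with Kat2a, the GCN5 enzyme, at 71.4, 118 and 119 CPM in DMSO and 35.2, 30.1 and 30.3 CPM in entinostat (log2 fold change -1.69 ± 0.24 SE, adjusted p = 7.61e-05). The count was 4 falls and 1 rise against the first DMSO library alone. Brd7, a bromodomain subunit of a SWI/SNF complex, changed by -1.83 ± 0.22 (SE).

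Of 12 tested PRC2 subunits 6 fell and 0 rose, beside the 39.1% of all tested genes with at least 0.5 CPM in DMSO without doxycycline that fell, and 2 fell against the first DMSO library alone. Ezh2, the methyltransferase, had 174, 223 and 219 CPM in DMSO and 141, 121 and 144 CPM in entinostat (log2 fold change -0.60 ± 0.17 SE, adjusted p = 0.00879), and Suz12, a core subunit, had 243, 386 and 419 CPM in DMSO and 191, 178 and 206 CPM in entinostat (log2 fold change -0.87 ± 0.25 SE, adjusted p = 0.00822). Both calls were lost against the first DMSO library alone, with log2 fold changes of -0.29, adjusted p = 0.349 for Ezh2 and -0.27, adjusted p = 0.483 for Suz12. Eed, the H3K27me3 reader, had 151, 102 and 100.5 CPM in DMSO and 183, 155 and 163 CPM in entinostat and did not pass the test (log2 fold change 0.50 ± 0.22 SE, adjusted p = 0.0611), with groups that were separate by a narrow margin. Ezh1, the other methyltransferase, also did not pass (log2 fold change 0.42 ± 0.25 SE, adjusted p = 0.156), but it did with the trend removed (0.71, adjusted p = 0.00257). Phf19 and Aebp2, accessory subunits, changed by -1.36 ± 0.16 and -1.74 ± 0.31 (SE). Of 19 PRC1 genes 8 fell (42.1%, also near that share) and 1 rose, and 5 fell against the first DMSO library alone. Among those that fell was Kdm2b, the CpG-binding subunit, at -1.36 ± 0.22.

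Genes of other lineages and of inflammation rose in many cases, mostly from very low levels. Members that were silent in DMSO could enter the test only by rising, so counts over tested members describe those members alone. Of 51 listed macrophage and myeloid targets of SPI1 35 were tested, and 19 rose and 3 fell. Among the 24 with at least 0.5 CPM in DMSO without doxycycline, 12 rose and 3 fell, beside 22.3% and 39.1% of all tested genes at that level. When only the first DMSO library was the control, 18 of the 35 rose and 1 fell. Dok2, an adaptor of myeloid receptors, had 1.97, 1.75 and 2.43 CPM in DMSO and 9.13, 14.4 and 15.6 CPM in entinostat (log2 fold change 2.67 ± 0.27 SE, adjusted p = 6.85e-06). Cd14, the coreceptor for lipopolysaccharide, had 0.0982, 0.0864 and 0.0431 CPM in DMSO and 1.19, 1.21 and 1.06 CPM in entinostat (log2 fold change 3.89 ± 0.39 SE, adjusted p = 7.63e-06), which leaves it at about 1 CPM.

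In the mast cell list 12 of 18 genes were tested, of which 10 rose and 1 fell, and 7 rose against the first DMSO library alone. Among the 9 with at least 0.5 CPM in DMSO without doxycycline, 7 rose and 1 fell. Il1rl1, the IL-33 receptor, had 231, 245 and 262 CPM in DMSO and 567, 510.0 and 524 CPM in entinostat (log2 fold change 1.12 ± 0.17 SE, adjusted p = 0.000121). The chymase genes Mcpt1 and Cma1 had 2 and 3 reads in DMSO and 140 and 127 in entinostat, ratios of 69.7 (exact 95% counting interval 18.9 to 581) and 42.2 (14.1 to 207). The marker sums given above moved with this list, and their part in it was not tested.

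Of 35 listed interferon-stimulated genes 29 were tested, and 18 rose and 5 fell. Their median log2 fold change was 1.25, and 1.45 against the first DMSO library alone. Among the 23 with at least 0.5 CPM in DMSO without doxycycline, 13 rose and 5 fell. Of all tested genes at that level 22.3% rose and 39.1% fell. Ifit2, an antiviral RNA-binding protein, had 3.02, 4.80 and 6.74 CPM in DMSO and 32.2, 30.8 and 37.5 CPM in entinostat (log2 fold change 2.78 ± 0.29 SE, adjusted p = 9.08e-06), and Cmpk2, a mitochondrial nucleotide kinase, had 9.19, 9.96 and 9.20 CPM in DMSO and 28.7, 27.3 and 33.9 CPM in entinostat (log2 fold change 1.67 ± 0.16 SE, adjusted p = 6.11e-06). Oasl1 went the other way, with 36.2, 51.0 and 47.6 CPM in DMSO and 16.1, 14.7 and 16.9 CPM in entinostat (log2 fold change -1.50 ± 0.19 SE, adjusted p = 4.34e-05). Of 40 listed chemokines and cytokines 19 were tested and 14 of them rose, while 3 fell. Among the 6 with at least 0.5 CPM in DMSO without doxycycline, 3 rose and 3 fell. Csf2, which encodes GM-CSF, had 2 reads in DMSO and 291 in entinostat, a ratio of 145 with an exact 95% counting interval of 39.8 to 1200.

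Of 26 listed genes known to rise with histone deacetylase inhibitors 19 were tested, and 13 rose and 3 fell. Among the 17 with at least 0.5 CPM in DMSO without doxycycline, 11 rose and 3 fell. Of all tested genes at that level 22.3% rose and 39.1% fell. The list was made with earlier results of these data known, so these counts are a description. Tuba1a, an alpha tubulin, had 6.29, 5.10 and 4.26 CPM in DMSO and 65.4, 77.1 and 78.0 CPM in entinostat (log2 fold change 3.82 ± 0.20 SE, adjusted p = 6.68e-08). Tubb3, the neuronal beta tubulin, had 0.712, 1.40 and 1.75 CPM in DMSO and 18.8, 30.2 and 29.5 CPM in entinostat (log2 fold change 4.34 ± 0.42 SE, adjusted p = 5.07e-06). Of 35 listed targets of the neuronal repressor REST only 7 were tested, of which 5 rose and 1 fell. Among the 4 with at least 0.5 CPM in DMSO without doxycycline, 3 rose and 1 fell. The synaptic vesicle gene Syp rose by 2.14 ± 0.33 (SE). Rest itself changed by -1.45 ± 0.25, and whether this is linked to the rises was not tested. Of 56 listed HOX and developmental genes 23 were tested, and 12 rose and 2 fell. Among the 11 with at least 0.5 CPM in DMSO without doxycycline 3 rose and 2 fell, a share of rises near that of all genes at that level. In this list, Pax9 and Neurog2 changed by 2.35 ± 0.25 and 2.77 ± 0.29. Ehf, an epithelial ETS factor, had 0.123, 0.497 and 0.603 CPM in DMSO and 32.8, 35.6 and 26.9 CPM in entinostat (log2 fold change 6.25 ± 0.40 SE, adjusted p = 3.15e-07). All of its entinostat libraries lay more than 40 times above its highest DMSO library.

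The BCL2 family changed in both directions, with 9 of 16 tested genes rising and 5 falling, and 7 rising and 2 falling against the first DMSO library alone. Among the 13 with at least 0.5 CPM in DMSO without doxycycline 6 rose and 5 fell. Bcl2l11, the pro-apoptotic gene of BIM, had 23.7, 31.6 and 32.6 CPM in DMSO and 40.4, 57.7 and 51.2 CPM in entinostat (log2 fold change 0.76 ± 0.21 SE, adjusted p = 0.00613). Bmf, another BH3-only gene, had 1 read in DMSO and 255 in entinostat, a ratio of 254 with an exact 95% counting interval of 45.2 to 10100. Bcl2l14 rose by 2.51 ± 0.26 (SE), and Bcl2, the anti-apoptotic founder, had 0.0982, 0.0216 and 0.172 CPM in DMSO and 1.39, 1.41 and 1.28 CPM in entinostat (log2 fold change 3.77 ± 0.55 SE, adjusted p = 0.000106). Bcl2a1a rose by 6.31 ± 0.74, but its copies are near-identical. Fas, the death receptor, was at 0 in all DMSO libraries and was at least 11.4-fold higher in entinostat against a floor of 3 counts per library.

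Abundant genes outside these groups also moved. Among genes averaging at least 100 CPM, S100a10, an annexin A2 partner, Nrip3 and Rgs18, a regulator of G protein signalling in megakaryocytes, changed by 3.20 ± 0.45, 3.17 ± 0.21 and 2.63 ± 0.30 on the log2 scale (SE). Hsph1, a heat shock protein of the HSP110 family, had 193, 339.6 and 378 CPM in DMSO and 59.96, 38.1 and 55.5 CPM in entinostat (log2 fold change -2.57 ± 0.31 SE, adjusted p = 2.74e-05), and its groups were separate.

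In the list of EPO and STAT5 response 12 of 18 fell and 4 rose, and 6 fell and 3 rose against the first DMSO library alone, with the kinase gene Pim3 at -1.53 ± 0.14 and Erfe, the erythroid hormone that lowers hepcidin, at -1.88 ± 0.28 (SE). Of 15 ERK feedback inhibitors 8 fell and 2 rose, but 1 fell and 3 rose against the first DMSO library alone. Of 19 ETS factors 6 fell (31.6%, near the 29.9% of all genes) and 3 rose, with the repressor gene Etv6 at -1.59 ± 0.29, and there 4 fell and 7 rose. Of 14 genes of DNA methylation and TET enzymes 7 fell and 2 rose, and 2 fell and 1 rose against the first DMSO library alone. Members with at least 0.5 CPM in DMSO without doxycycline were also counted. Falls numbered 12 of 16, 8 of 13, 6 of 16 and 7 of 13, in the order of these lists. Of all tested genes at that level 39.1% fell. Tet3, a methylcytosine dioxygenase, had 60.5, 109 and 123 CPM in DMSO and 26.7, 37.3 and 27.5 CPM in entinostat (log2 fold change -1.68 ± 0.29 SE, adjusted p = 0.000341). Uhrf1, which guides maintenance methylation, changed by -1.86 ± 0.36, and that call was lost against the first DMSO library alone (-0.82, adjusted p = 0.0855).

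Other lists were mixed. In those of this paragraph 32.0% to 47.4% of tested members rose and 26.3% to 32.0% fell, beside 33.9% and 29.9% of all genes. Of 25 tested p53 targets 8 rose and 8 fell, and 8 rose and 2 fell against the first DMSO library alone, with Ddb2, of DNA repair, at 1.69 ± 0.24 and the nuclease gene Aen at -1.96 ± 0.18 (SE). Of 21 immediate early genes 9 rose and 6 fell, and 7 rose and 3 fell with that control, with Ier3 at 2.46 ± 0.27 and the transcription factor gene Srf at -1.93 ± 0.28. Of 19 genes of MHC and antigen presentation 9 rose and 5 fell, and 4 rose and 2 fell with that control. Nlrc5, the transactivator of MHC class I genes, had 2.80, 2.01 and 2.58 CPM in DMSO and 8.30, 14.3 and 10.5 CPM in entinostat (log2 fold change 2.16 ± 0.23 SE, adjusted p = 1.21e-05). Tap2, of the peptide transporter, went the other way and changed by -1.89 ± 0.28.

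In the megakaryocyte list 19 of 21 genes were tested, and 10 rose and 2 fell, or 7 and 1 against the first DMSO library alone. Among the 11 with at least 0.5 CPM in DMSO without doxycycline, 6 rose and 2 fell. Vwf, the von Willebrand factor, had 1.13, 0.756 and 1.25 CPM in DMSO and 3.92, 4.18 and 3.74 CPM in entinostat (log2 fold change 1.92 ± 0.29 SE, adjusted p = 0.000125). Gp5, of the platelet glycoprotein complex, had 25.1, 52.0 and 62.5 CPM in DMSO and 6.78, 7.003 and 7.99 CPM in entinostat (log2 fold change -2.68 ± 0.35 SE, adjusted p = 4.45e-05). The groups were separate in both genes, in opposite directions. Genes of B cells, of T and NK cells, of stroma and endothelium and of neutrophil granules were mostly too low to test, with 4 of 15, 4 of 22, 6 of 17 and 2 of 16 tested. Of those tested, 2, 3, 5 and 1 rose, and 1 B cell gene, Blnk, fell (log2 fold change -0.86 ± 0.24 SE, adjusted p = 0.00809).

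**Figure D4:**
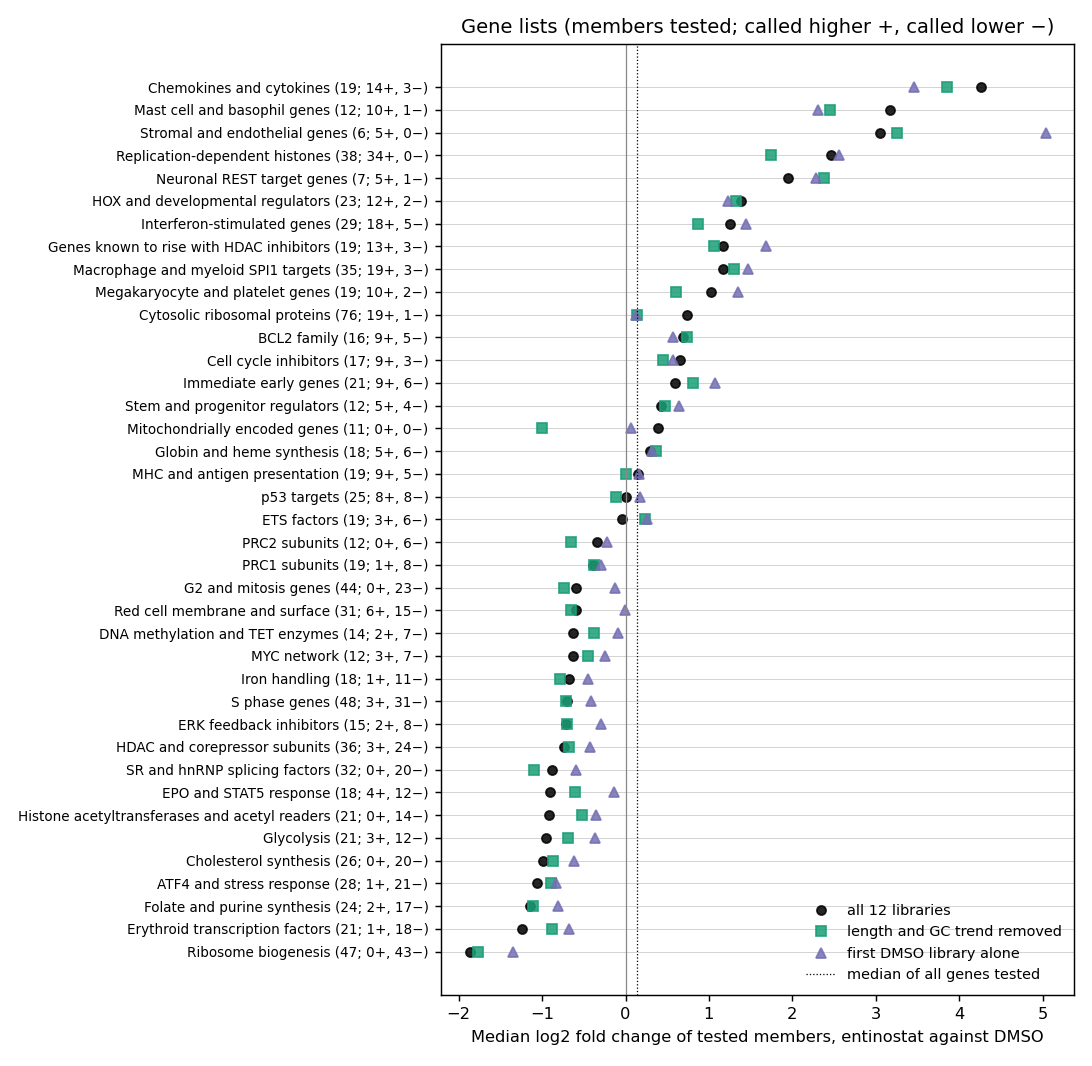
Median log2 fold change of the tested members of each gene list with at least 5 tested members, for entinostat against DMSO after knockdown, in 3 fits. The numbers beside each name are members tested, called higher (+) and called lower (−) in the reported fit. Ribosome biogenesis lies lowest at -1.87, the dotted line marks the median of all genes at 0.14, and mitochondrially encoded genes lie on opposite sides of 0 in different fits.

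The same inhibitor was given without doxycycline, and these 2 comparisons share no library. Without doxycycline 4554 genes rose (30.3%) and 2545 fell (16.9%). Of the 5097 rises after knockdown 3863 (75.8%) also rose there, which is 84.8% of the rises without doxycycline. Of the 4498 falls 2255 (50.1%) also fell there, or 88.6% of the falls without doxycycline. Opposite calls were made for 5 and 8 genes. Ubtf fell there too (-2.14 ± 0.25 SE, adjusted p = 2.68e-05), as did Myc (-1.58 ± 0.26 SE, adjusted p = 0.000321), and H1f2 rose (3.35 ± 0.32 SE, adjusted p = 6.1e-06).

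A test of the difference between both effects called 25 genes as more raised after knockdown (0.166%) and 16 as less (0.106%). These counts depended on single libraries: with the first DMSO library after doxycycline and the first entinostat library without doxycycline both left out, 3307 and 4639 genes were called, together 52.8%. The 12 genes named here by their difference were called in that fit as well. With the trend removed 40 and 34 were called, together 0.492%. Against the first DMSO library alone 7 and 3 were called, among them 3 of the 12. Each of the effects compared rests on 3 against 3 libraries.

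The level after doxycycline alone enters the test of the difference, so a low DMSO level after knockdown is part of what selected the genes with a larger rise. Lgals1, which encodes galectin-1, had 5.16, 2.16 and 2.58 CPM in DMSO and 91.4, 173 and 118 CPM in entinostat after knockdown. Without doxycycline it had 75.7, 77.9 and 77.4 CPM in DMSO and 318, 245 and 233 CPM in entinostat. Its entinostat effect differed between both settings by 3.49 ± 0.43 SE, adjusted p = 0.00493. Entinostat after knockdown thus left Lgals1 above every DMSO library without doxycycline.

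Tespa1, of T cell receptor signalling, had 0.246, 0.0432 and 0.108 CPM in DMSO and 11.9, 16.4 and 12.2 CPM in entinostat after knockdown and 6.38, 7.91 and 7.53 CPM in DMSO and 53.8, 37.7 and 36.0 CPM in entinostat without doxycycline (difference 4.14 ± 0.47 SE, adjusted p = 0.00493). Cd200r1, an inhibitory receptor of myeloid cells, had 0.417, 0.259 and 0.474 CPM in DMSO and 18.3, 20.3 and 20.3 CPM in entinostat after knockdown and 4.92, 5.89 and 11.0 CPM in DMSO and 55.2, 39.7 and 42.2 CPM in entinostat without doxycycline (difference 3.02 ± 0.43 SE, adjusted p = 0.00953). Scin, the actin-severing protein scinderin, had 0.270, 0.0648 and 0.172 CPM in DMSO and 2.57, 2.91 and 2.62 CPM in entinostat after knockdown and 7.96, 7.95 and 10.8 CPM in DMSO and 12.7, 16.8 and 19.4 CPM in entinostat without doxycycline (difference 3.13 ± 0.44 SE, adjusted p = 0.00953). Tespa1 and Cd200r1 passed their DMSO level without doxycycline, whereas Scin stayed under it in all 3 libraries. Rnase6, a ribonuclease of myeloid cells, and Glipr1 differed by 3.16 ± 0.47 SE, adjusted p = 0.0123 and by 2.88 ± 0.42 SE, adjusted p = 0.0103. Tnf, the inflammatory cytokine, was also called (2.89 ± 0.48 SE, adjusted p = 0.0274), at no more than 1.79 CPM after knockdown.

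In the same way, a high DMSO level after knockdown is part of what selected the genes with a smaller rise. Plpp1, a lipid phosphatase, had 19.7, 19.8 and 17.1 CPM in DMSO and 50.5, 34.99 and 39.1 CPM in entinostat after knockdown and 2.16, 2.48 and 1.35 CPM in DMSO and 31.1, 24.3 and 23.04 CPM in entinostat without doxycycline (difference -2.57 ± 0.32 SE, adjusted p = 0.00493). Osr2, a zinc finger factor, had 3.49, 5.21 and 4.72 CPM in DMSO and 5.24, 5.43 and 4.95 CPM in entinostat after knockdown and 0.405, 0.608 and 0.502 CPM in DMSO and 3.36, 4.35 and 3.41 CPM in entinostat without doxycycline (difference -2.65 ± 0.33 SE, adjusted p = 0.00493). The 2 groups of Osr2 overlapped after knockdown and were separate without doxycycline. Btnl10, a butyrophilin-like gene, fell after knockdown, from 21.98, 61.9 and 57.3 CPM in DMSO and 14.6, 17.2 and 16.7 CPM in entinostat (log2 fold change -1.54 ± 0.32 SE, adjusted p = 0.00114), and rose without doxycycline (1.86 ± 0.34 SE, adjusted p = 0.000705). The difference for Btnl10 was -3.40 ± 0.47 SE, adjusted p = 0.00953, and its fall was lost against the first DMSO library alone (-0.38, adjusted p = 0.298).

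Rnf212, a meiotic crossover gene, had 2.58, 3.11 and 4.09 CPM in DMSO and 12.2, 15.4 and 17.8 CPM in entinostat after knockdown and 0, 0.0217 and 0.0436 CPM in DMSO and 1.62, 1.74 and 1.63 CPM in entinostat without doxycycline (difference -3.87 ± 0.58 SE, adjusted p = 0.0135). Ephb3, an ephrin receptor, and Fhdc1, a formin-like gene, differed by -3.54 ± 0.61 SE, adjusted p = 0.035 and by -3.08 ± 0.55 SE, adjusted p = 0.0391. After knockdown Ephb3 did not pass the test (log2 fold change 0.29 ± 0.40 SE, adjusted p = 0.547), and its first DMSO library, at 10.2 CPM, lay far under the other two.

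**Figure D5:**
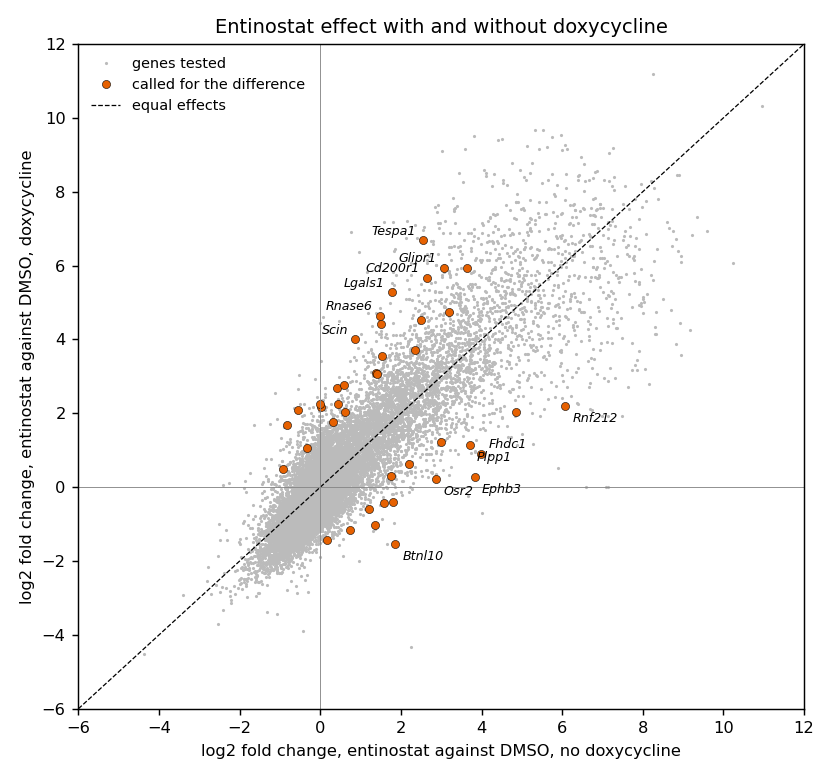
Each point is a gene tested, placed by its log2 fold change for entinostat without doxycycline (horizontal) and after doxycycline (vertical); orange points are the 41 genes called for the difference, 12 of them labelled, and the dashed line marks equal effects. Labelled genes above the line, such as Lgals1 and Tespa1, rose in both settings, and Btnl10 lies in the quadrant of a fall after doxycycline and a rise without it.

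The first experiment, which shares no library with this comparison, gives a list of genes that changed with doxycycline. Doxycycline, called knockdown here within the limit given at the start, lowered 8.36% and raised 5.26% of the genes tested there. Over the 12640 genes tested in both experiments, 84.0% of those tested here, 25.7% rose and 35.2% fell with entinostat after knockdown. Of the 1130 genes that knockdown had lowered in the first experiment, 496 (43.9%) rose with entinostat and 252 (22.3%) fell. These 496 were 15.3% of the entinostat rises. With the replicate number as a block in the first experiment, 1052 lowered genes rose and 1091 fell. In that fit 714 raised genes rose with entinostat and 1413 fell. Of the 714 genes that knockdown had raised there, 219 (30.7%) rose, which is 6.74% of the rises, and 232 (32.5%) fell. With the first DMSO library as sole control, 38.8% of the lowered genes rose and 9.73% fell, beside 16.6% and 14.5% of all 12640. Entinostat without doxycycline gave 429 rises (38.0%) and 169 falls among the same 1130 lowered genes. Among the 714 raised genes it gave 340 rises (47.6%) and 78 falls. Of all 12640 genes 22.7% rose and 19.9% fell without doxycycline. The higher share of rises among lowered genes was thus not particular to cells after knockdown. The length of transcripts was similar in these lists, with medians of 3200 bases for lowered and 3276 for raised genes and 2998 over all. The lists were not matched for expression level. The knockdown calls of the first experiment depended on its libraries: genes lowered there and raised by entinostat numbered 249 without replicate 3 of the untreated group, and 325 and 298 without replicate 2 and 3 of doxycycline. The cause was not tested.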

How the data were processed

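Poly(A) RNA was sequenced with an unstranded kit, per the labels' protocols; bcl2fastq 2.17.1.14, STAR, DESeq2 and mm10 are named in the submitters' processing notes, and the counting program and annotation are not given in the sources used here. The authors deposited raw read counts per gene, without unique molecular identifiers, so intervals cover counting error only. Counts were analysed in R 4.3.3 with edgeR 4.0.16: default filter, TMM factors, 1 quasi-likelihood fit over the 12 libraries of the experiment, and contrasts between groups; the first experiment was fitted alone. SE is the log2 fold change divided by the square root of F. Transcript length and GC came from GENCODE M21 (longest transcript); their trend was removed per library by splines with 4 degrees of freedom as an offset. Labels do not say that replicates came from separate cultures, so p-values measure the spread between these samples. Alternatives used DESeq2 1.42.0, limma 3.58.1, other scalings and filters, and left-out libraries. The code was tested on simulated data. Genes were named by fixed rules: the 12 largest rises and falls of at least 5 CPM without overlap, the 8 largest of at least 100 CPM, up to 4 called members of each of 42 lists, 6 genes each way for the difference, and 13 genes always; the text describes a part of these. Tnf's difference was singled out after its values were seen, and the fit against the first DMSO library alone was added after seeing the data. The members, genes and lists were chosen with earlier results of these data known. Replicate numbers were not used to pair the samples in the reported fit. Deviations of same-numbered libraries of the 2 groups correlated at 0.0846, 0.0285 and 0.0843. The first replicate nevertheless had the highest mitochondrial share of counts in each group. It was 1.24% in DMSO and 1.64% in entinostat without doxycycline, and 1.48% and 1.76% after it. Whether the numbers mark a shared batch was not tested. Some named genes are not reported here.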

Additional observations from a re-analysis of the deposited data

Results flagged for a closer look

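Each of these 12 genes was singled out because its response to entinostat differed between cells with and without doxycycline by the interaction test in edgeR. The difference on the log2 scale was 4.14 for Tespa1 (adjusted p = 0.00493), 3.49 for Lgals1 (adjusted p = 0.00493), 3.16 for Rnase6 (adjusted p = 0.0123), 3.13 for Scin (adjusted p = 0.00953), 3.02 for Cd200r1 (adjusted p = 0.00953) and 2.88 for Glipr1 (adjusted p = 0.0103). It was -3.87 for Rnf212 (adjusted p = 0.0135), -3.54 for Ephb3 (adjusted p = 0.0350), -3.40 for Btnl10 (adjusted p = 0.00953), -3.08 for Fhdc1 (adjusted p = 0.0391), -2.65 for Osr2 (adjusted p = 0.00493) and -2.57 for Plpp1 (adjusted p = 0.00493). Against the first DMSO library alone 3 of the 12 were still called, and without the second entinostat library after doxycycline 4 were; all kept their direction in every alternative run.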

How the results depend on the processing

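Counts of genes called with entinostat after knockdown stayed within 1.5 times of the reported ones under other scalings, filters, tools, the block, trend removal and left-out libraries: leaving out 1 library gave 4415 to 6109 rises and 3900 to 4849 falls. Against the first DMSO library alone, an alternative chosen after seeing the data in which that library is assumed to vary like the others, there were 3308 rises, 1848 falls and 902 falls of at least 2-fold. The length trend of the fold change, -1.27 between the longest and shortest classes, became -0.455 against that library, -0.812 over genes with at least 5 CPM on average and -1.86 to -1.09 with 1 library left out; the cause was not tested. Library size alone as scaling moved the median of all genes from 0.141 to 0.283, and removal of the trend moved it to -0.0694.

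The interaction counts of 25 and 16 were the least stable. They were 67 and 139 with no filter on low counts, 122 and 113 with DESeq2, 40 and 34 with the trend removed, 3307 and 4639 without the first DMSO library after doxycycline and the first entinostat library without it, and 7 and 3 against the first DMSO library alone. With 1 library left out they ranged from 6 to 1018 and from 3 to 2133; the highest values came from leaving out the first DMSO library after doxycycline (1018) and the first entinostat library without it (2133). With a replicate block they were 73 and 104, and with block and trend removal 109 and 161; the cause was not tested.

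Spi1 with entinostat passed the test with a replicate block (0.47, adjusted p = 0.0337), with block and trend removal (0.63, adjusted p = 0.00609) and against the first DMSO library alone (1.20, adjusted p = 0.0387), but with no single library left out (0.16 to 0.66). Its change with doxycycline in DMSO was -1.53 to -1.03 with 1 library left out, and missed the threshold in 4 of those 12 fits.

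Overlap counts with the first experiment, in the order raised and raised, raised and lowered, lowered and raised, lowered and lowered (knockdown first), were 714, 1413, 1052 and 1091 with a replicate block there, and 78, 72, 250 and 93 at a threshold of 0.01. With the block, rises and falls were near equal among lowered genes, and falls outnumbered rises among raised genes. Over all 12640 genes tested in both experiments 25.7% rose and 35.2% fell. Leaving out 1 library gave 74 to 223, 50 to 262, 249 to 503 and 77 to 292, with the lowest values without the third library without doxycycline of the first experiment. Against the first DMSO library alone those raised and lowered numbered 81 and those lowered in both 110.

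Among named genes, Hdac1, which did not pass the test, was at -0.047 with the trend removed and -0.045 with a replicate block as well. Ephb3, also not called, was at -0.10 without the first DMSO library, alone or with the first entinostat library without doxycycline. Leaving out 1 library gave values up to 0.62 for Ephb3. Depth limits genes with few reads in DMSO, such as Albfm1, whose ratio has an interval of 147 to 32600.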
